A study of Rattus norvegicus with 16 samples.

Results

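The genes that still differed from uninjured glomeruli in rats given puromycin aminonucleoside (PAN) and treated with pioglitazone were described by comparing the group PAN_Pio with the group Ctl. The group label put 4 libraries in each, 8 of the 16 libraries of the series, and all 13222 genes of the deposited table were tested. Higher genes included 8 of 14 measured genes of mesangium and smooth muscle and 6 of 17 of interstitial collagen and its processing. They also included 5 of 11 of striated muscle and sarcomere and 8 of 24 of the actin cytoskeleton. Lower genes included 5 of 12 of the collecting duct. In all, 338 genes were higher (2.56%) and 98 lower (0.741%) at a limma adjusted p under 0.05. Without Ctl rat 3 or PAN_Pio rat 2, the mesangial, collagen, actin and collecting duct lists each held 0 calls, and the muscle list 3. With the mean log2 level of tubule genes as a covariate, 0 genes were called. The lists were chosen with earlier results of these data known.

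The glomerulus filters blood through a capillary wall made of fenestrated endothelium, a basement membrane and the interdigitating foot processes of podocytes, while contractile mesangial cells hold the capillary loops together. PAN injures podocytes, whose foot processes flatten and whose actin cytoskeleton is rearranged, and protein is lost into the urine. Pioglitazone is a thiazolidinedione that activates the nuclear receptor PPARγ, a transcription factor best known for control of lipid storage and insulin sensitivity. Desmin in podocytes and the cell cycle inhibitor p21 are widely used as marks of podocyte injury, and smooth muscle actin as a mark of mesangial activation.

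All rats were male Wistar animals of about 175 g, and glomeruli were sieved from kidneys on day 11. The 4 Ctl rats carry the label healthy. The 4 PAN_Pio rats had PAN by vein and pioglitazone by daily gavage, and the 4 PAN rats, whose values are set beside some genes, had PAN by vein. Per the labels' protocol, gavage was with a drug or a sham vehicle, but no label says what the controls received or gives a dose. No litter, batch or pairing is named either, so that p-values rest on the spread between libraries. That spread was estimated over all 16 libraries, which include the 4 rats of the group labelled PAN_GQ-16. Hereafter the PAN_Pio rats are called the pioglitazone group.

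Levels are CPM, reads scaled to a common library total, after each library was centred on its median log2 value, and each list of 4 values runs from rat 1 to rat 4 of its group. Library totals lay between 15156273 and 21977663 reads, and 3 reads corresponded to 0.137 to 0.198 CPM. The share of reads from 21 mitochondrial genes was 26.3% ± 11.8 in control and 14.3% ± 4.57 in the pioglitazone group (SD, n = 4), a difference of -12.0 percentage points (two-sided exact permutation p 0.143, smallest possible 0.0286). With 1 rat left out it ranged from -16.2 points, without control rat 1, to -7.61 points, without control rat 2. Control rat 1 stood apart from the other controls in podocyte genes, with a mean level over the podocyte list of 7.95 on the log2 scale against 6.39 to 6.96. Control rats 2 and 3 had the largest mitochondrial shares, 39.6% and 32.6%. The mean log2 level of 40 genes of the proximal tubule, thick limb, distal tubule and collecting duct was 6.56 to 6.99 in controls and 5.49 to 6.25 in the pioglitazone group, without overlap, and with that level as a covariate 0 genes were changed. Leaving out one rat moved the number of changed genes from 436 to between 32, without pioglitazone rat 2, and 697, without pioglitazone rat 3. It was 35 without control rat 3, 58 without control rat 2, 91 without pioglitazone rat 4, 179 without pioglitazone rat 1, 189 without control rat 4 and 585 without control rat 1.

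**Figure D1:**
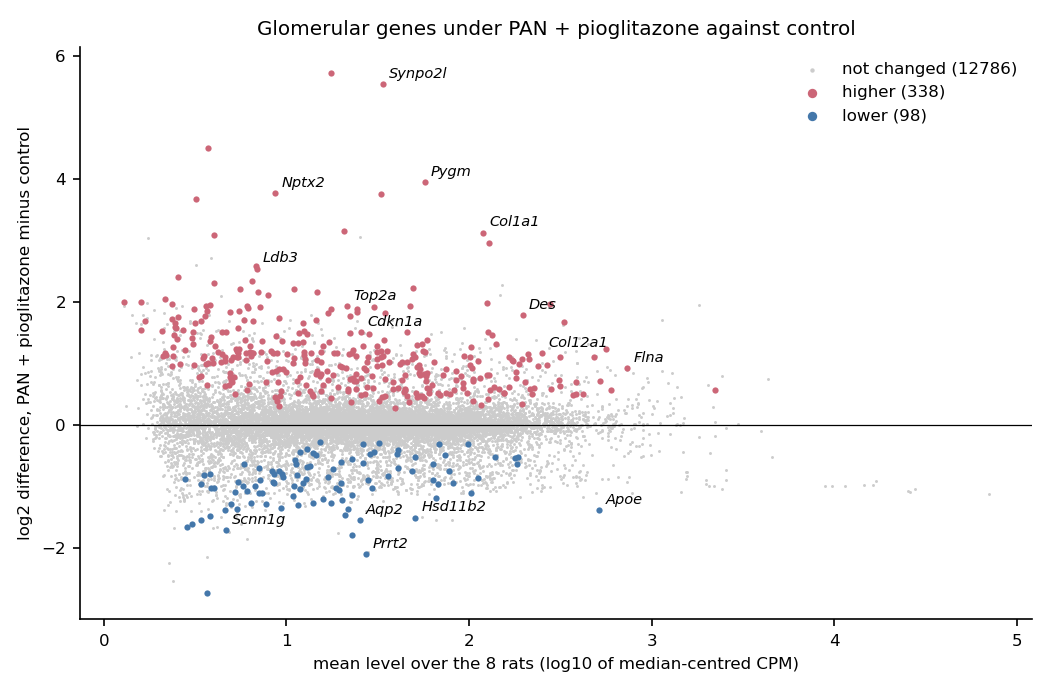
Log2 difference between PAN + pioglitazone and control (vertical axis) against the mean level over the 8 rats (horizontal axis, log10 of median-centred CPM); each point is a gene, red where higher, blue where lower and grey where the limma adjusted p was 0.05 or more. The 338 higher genes reach a log2 difference above 5, and the 98 lower genes mostly lie between 0 and -2.

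Of the 436 changed genes, 408 had no overlap between the 8 rats, beside 912 higher genes (6.9%) and 696 lower genes (5.26%) without overlap among all genes tested. The higher genes had a median log2 difference of 1.05 and the lower genes of -0.91. A difference of at least 2-fold was reached by 185 of the higher and 38 of the lower genes. The median over all genes was 0.01. Higher genes made up 77.5% of the changed genes. This share was 94.8% without centring, with 653 higher and 36 lower, and 53.1% without pioglitazone rat 3, with 370 higher and 327 lower. Of 646 distinct genes on 38 lists of cell types and pathways, 53 were higher and 8 lower, and 17 lists held no changed gene. The other 375 changed genes were on no list. In the comparison of PAN with the same controls 841 genes were higher (6.36%) and 236 lower (1.78%). Since both comparisons use the 4 control rats, their values are only set side by side. The direct comparison of the pioglitazone group with PAN called 0 genes in limma, with 763 at an unadjusted p under 0.05 and a smallest adjusted p of 0.759. Intervals given below for that difference are 95% intervals for single genes, unadjusted for the number of genes.

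**Figure D2:**
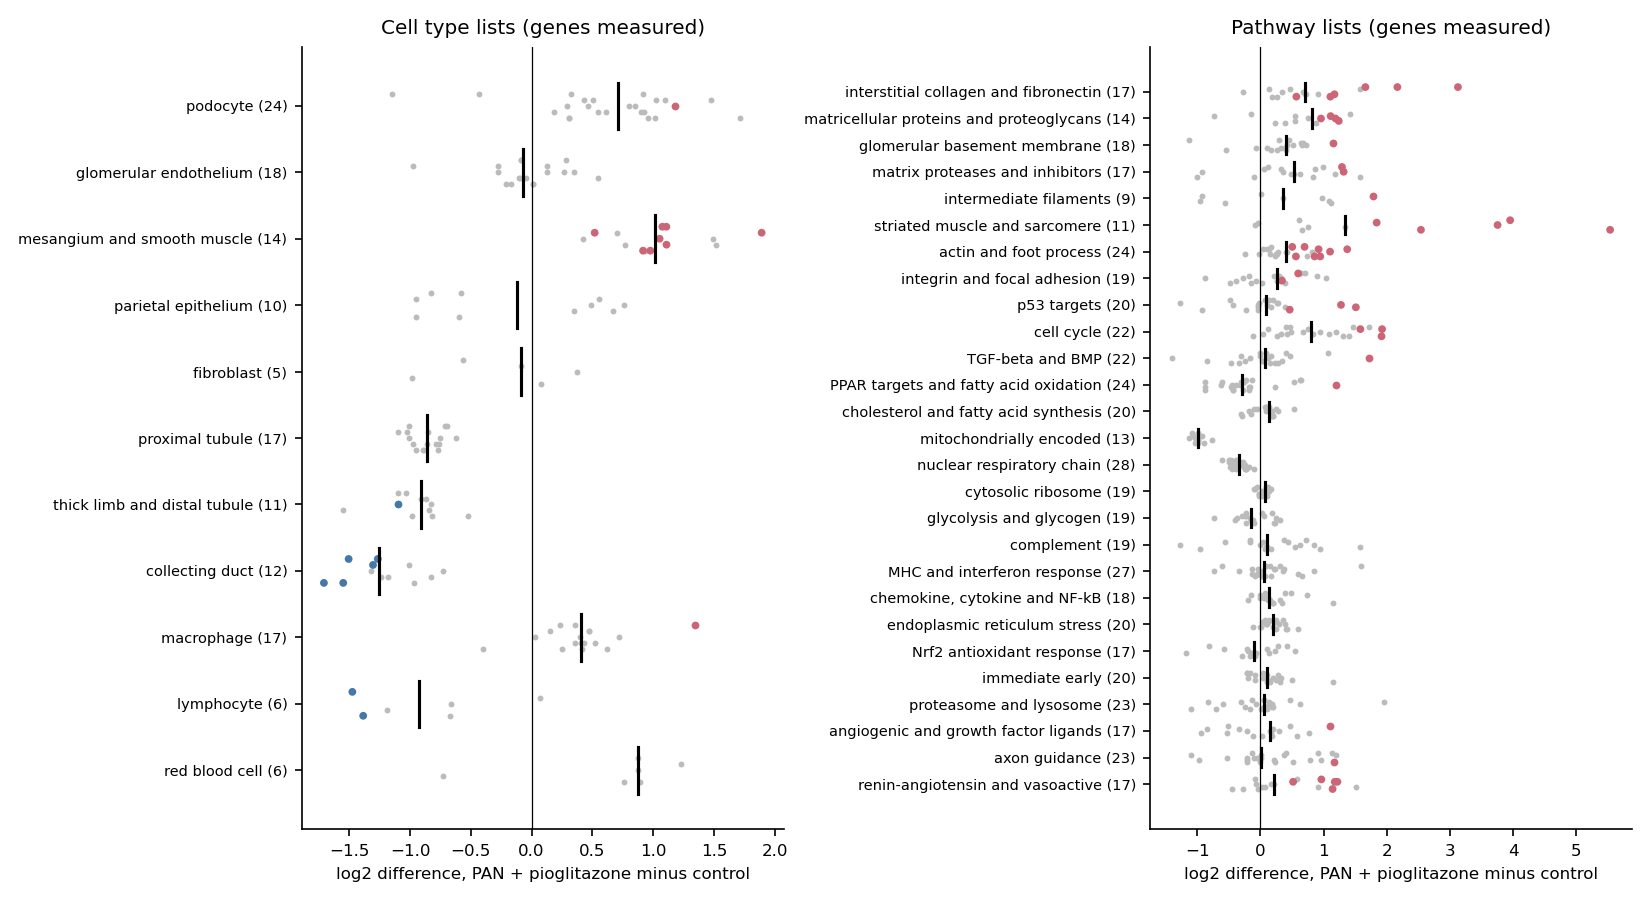
Log2 difference between PAN + pioglitazone and control (horizontal axes) for every measured gene of each cell type list (left) and pathway list (right), with the number measured in brackets; black bars mark list medians and red or blue points the genes that were changed. The mesangial, interstitial collagen, matricellular, striated muscle and actin lists hold 4 to 8 red points each, and the collecting duct list holds 5 blue ones.

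Striated muscle and sarcomere genes were among the largest rises. Synpo2l (ENSRNOG00000008949), which encodes an actin-binding protein of the muscle Z-disc, was 1.99, 1.27, 0.824 and 1.16 CPM in control rats and 23.3, 85.5, 56.7 and 98.6 CPM in the pioglitazone group. Every treated rat was more than 10 times above every control, with a log2 difference of 5.54 (SE 0.61, limma adjusted p 0.00145). In PAN rats it was 81.1, 139.6, 154 and 137 CPM, 6.64 above control on the log2 scale, and the interval of pioglitazone minus PAN was -2.42 to 0.21. Pygm (ENSRNOG00000021090), the glycogen phosphorylase of muscle, was 7.21, 5.86, 4.12 and 5.91 CPM in control and 49.9, 129.6, 43.2 and 212 CPM with pioglitazone. The groups did not overlap, and rats 2 and 4 of the pioglitazone group were the high ones, with a log2 difference of 3.95 (SE 0.45, limma adjusted p 0.00145).

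Ldb3 (ENSRNOG00000059166), a Z-disc adaptor protein gene, was 2.42, 2.29, 1.61 and 1.72 CPM in control, 10.8, 11.5, 9.48 and 15.1 CPM with pioglitazone and 41.4, 24.6, 16.5 and 30.2 CPM in PAN. All pioglitazone rats lay between the controls and the PAN rats, with a log2 difference of 2.54 (SE 0.31, limma adjusted p 0.00213) against control and an interval of -1.86 to -0.56 for pioglitazone minus PAN. Myom2, a gene of the M-band that links thick filaments, was 15.3, 1.81, 0.9804 and 5.002 CPM in control and 16.9, 54.7, 36.9 and 133 CPM with pioglitazone. Control rat 1 and pioglitazone rat 1 nearly met, and the log2 difference was 3.75 (SE 0.797, limma adjusted p 0.0261). Of 11 measured among 32 listed sarcomere and striated muscle genes, 5 were higher and 0 lower (2.56% and 0.741% of all genes). The fifth was Nexn, an actin filament protein, at 1.84. The median over the 11 was 1.34 here and 1.68 for PAN against control. The list was chosen with earlier results of these data known. Between 3 and 6 of its genes were called with any 1 rat left out.

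The starts of these genes were searched in RefSeq promoter sequences of assembly GRCr8. The Ldb3 promoter is shown because it holds a CArG box, the element bound by serum response factor in many muscle and cytoskeletal genes. It is the 150 bases before the start at chr16:9924680-9924829, minus strand, with the CArG box in capitals.
Ldb3: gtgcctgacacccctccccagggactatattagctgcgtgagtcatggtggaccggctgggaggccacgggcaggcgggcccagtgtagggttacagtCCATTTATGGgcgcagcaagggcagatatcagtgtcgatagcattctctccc
On either strand, a CArG box was present in the 250 bases before the start of 1.5% of all 27457 promoters and 1.18% of those of genes in the table. Among the 7 genes of the striated muscle and sarcomere list with a promoter sequence 2 held one. A match of letters is a description of the window and not of binding.

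Mesangial genes were prominent among the rises. Of 14 measured genes of mesangium and smooth muscle, 8 were higher and 0 lower (2.56% and 0.741% of all genes), all 14 differences were positive, and the median was 1.01 here and 0.98 for PAN against control. Acta2 (ENSRNOG00000058039), the smooth muscle actin gene, was 13.8, 9.62, 9.45 and 8.51 CPM in control and 44.5, 37.6, 39.8 and 30.5 CPM with pioglitazone. The lowest treated rat was more than 2 times the highest control, with a log2 difference of 1.89 (SE 0.37, limma adjusted p 0.0191), and PAN rats had 134, 58.5, 46.5 and 32.5 CPM. Notch3, a receptor of mural cells, was 123, 121, 86.9 and 112 CPM in control and 315, 233, 194 and 188 CPM with pioglitazone. The groups did not overlap, with a log2 difference of 1.05 (SE 0.195, limma adjusted p 0.017), and the interval of pioglitazone minus PAN was -0.33 to 0.51. Serpine2, a secreted serine protease inhibitor, was 24.2, 20.7, 13.8 and 23.03 CPM in control and 44.1, 43.2, 36.4 and 45.6 CPM with pioglitazone. Again no rats overlapped, with a log2 difference of 1.08 (SE 0.21, limma adjusted p 0.0191).

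The other mesangial genes that were higher were Pdgfrb, the receptor for the mesangial growth factor PDGF-B, Itga8, an integrin subunit of mesangial cells, the transcription factor gene Gata3, the pericyte proteoglycan gene Cspg4 and the angiotensin receptor gene Agtr1a. Their log2 differences ran from 0.52 for Agtr1a to 1.11, and only the rats of Agtr1a overlapped. The mean level of the list was 4.72 to 5.73 on the log2 scale in control rats and 6.09 to 6.51 with pioglitazone. Control rat 1 had the highest level of the controls. In bulk glomeruli, more cells of a type and more RNA per cell cannot be told apart. With 1 rat left out, the number of these genes called was 0 without control rat 3 or pioglitazone rat 2, 1 without control rat 2 and 4 to 9 otherwise.

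**Figure D3:**
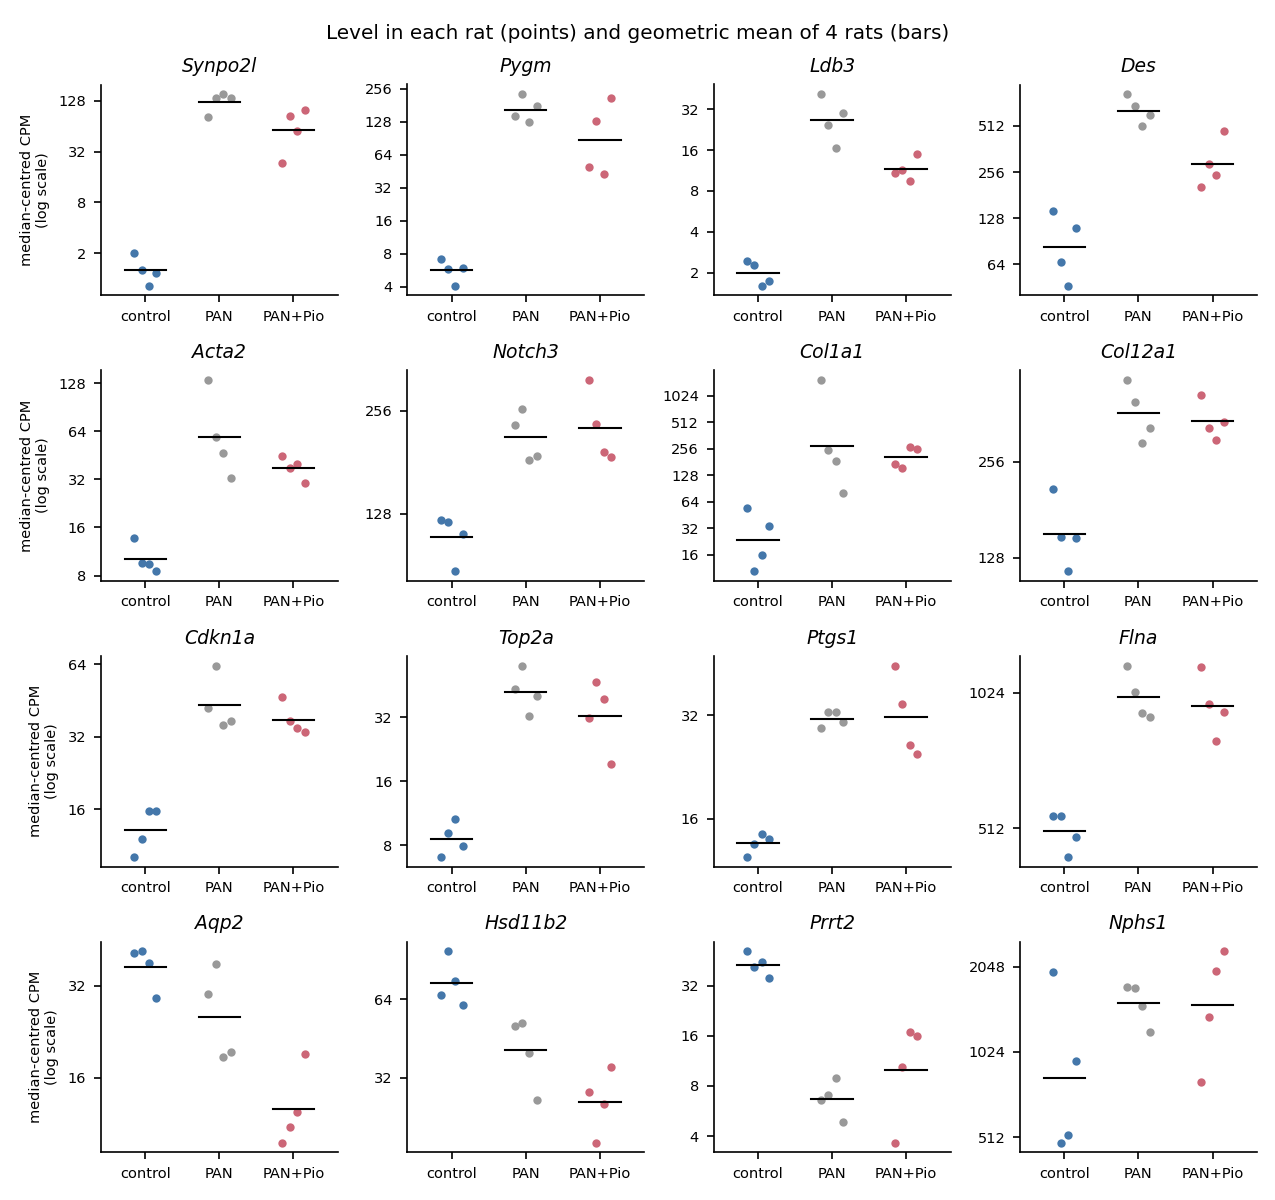
Level of 16 genes in each rat (points; vertical axes on a log2 scale of median-centred CPM) of the control, PAN and PAN + pioglitazone groups, with bars at the geometric mean of 4 rats. Pioglitazone rats lie apart from controls in every panel except that of the podocyte gene Nphs1, where control rats 1 and 4 overlap them.

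Genes of contractility and vessel tone that act on these cells were also among the changes. Of 17 renin-angiotensin and vasoactive genes, 5 were higher and 0 lower (2.56% and 0.741% of all genes), and the median was 0.21. Ptgs1 (ENSRNOG00000007415), the constitutive cyclooxygenase that starts prostaglandin synthesis, was 12.4, 13.5, 14.4 and 13.99 CPM in control and 44.5, 34.5, 26.1 and 24.7 CPM with pioglitazone. The controls were tightly grouped and every treated rat was higher, with a log2 difference of 1.22 (SE 0.15, limma adjusted p 0.00222). The inducible cyclooxygenase gene Ptgs2 was 7.64, 7.499, 6.39 and 9.01 CPM in control and 17.8, 23.8, 11.6 and 16.03 CPM with pioglitazone. All treated rats were above all controls, with a log2 difference of 1.14 (SE 0.200, limma adjusted p 0.0147). Ednra, the endothelin A receptor, was 10.2, 7.16, 5.53 and 8.17 CPM in control and 18.9, 15.3, 16.5 and 18.02 CPM with pioglitazone. Its groups stood apart too, with a log2 difference of 1.18 (SE 0.23, limma adjusted p 0.0191). The remaining genes of this list to rise were Ptger4, a prostaglandin E2 receptor, at 0.97, and Agtr1a, which has a close paralog in the rat, at 0.52. Against PAN the intervals were -0.31 to 0.33 for Ptgs1, -0.29 to 0.56 for Ptgs2 and -0.44 to 0.54 for Ednra. Without control rat 3 or pioglitazone rat 2 the list held 1 call, and without control rat 2 or pioglitazone rat 4 it held 2.

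Interstitial matrix genes were also among the rises. Of 17 measured genes for interstitial collagens, fibronectin and collagen-processing enzymes, 6 were higher and 0 lower (2.56% and 0.741% of all genes). The list median was 0.71 here and 1.47 for PAN against control. Col1a1 (ENSRNOG00000003897), a chain of type I collagen, was 54.1, 10.3, 15.9 and 33.6 CPM in control, 169.8, 152, 266 and 253 CPM with pioglitazone and 1544, 243, 185 and 80.97 CPM in PAN. Treated rats were all above controls, with a log2 difference of 3.13 (SE 0.75, limma adjusted p 0.0375), whereas the PAN rats spanned a wider range led by PAN rat 1. Col12a1, a collagen that decorates collagen fibrils, was 209.9, 148, 116 and 148 CPM in control and 414, 326, 299 and 342 CPM with pioglitazone. Here control rat 1 was the highest control and the groups did not overlap, with a log2 difference of 1.17 (SE 0.23, limma adjusted p 0.0191). Col8a1, a short-chain collagen of vessel walls, was 6.72, 4.49, 3.18 and 6.64 CPM in control and 33.8, 31.1, 12.5 and 19.7 CPM with pioglitazone. Its lowest treated rat, rat 3, was above every control, with a log2 difference of 2.17 (SE 0.44, limma adjusted p 0.021).

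The crosslinking enzyme gene Loxl2 was 7.58, 4.76, 4.98 and 6.64 CPM in control and 17.9, 20.4, 21.5 and 15.2 CPM with pioglitazone, with a log2 difference of 1.66 (SE 0.36, limma adjusted p 0.0279). Its relative Loxl1, at 1.11, and the collagen chaperone gene Serpinh1, at 0.57, were also higher. Among 14 matricellular proteins and proteoglycans, 4 were higher and 0 lower (2.56% and 0.741% of all genes), with a median of 0.81. Biglycan, a small proteoglycan encoded by Bgn, was 467, 275, 186 and 334 CPM in control and 717, 603, 587 and 687 CPM with pioglitazone. The groups stood apart, with a log2 difference of 1.11 (SE 0.26, limma adjusted p 0.0339). Thbs1, the gene for thrombospondin 1, which can activate latent TGF-β, was 246, 163, 114 and 138 CPM in control and 316, 309, 254 and 362 CPM with pioglitazone. Control rat 1 came close to pioglitazone rat 3, and the log2 difference was 0.96 (SE 0.22, limma adjusted p 0.0318). Fibrillin 1, a microfibril protein encoded by Fbn1, differed by 1.19 (SE 0.27, limma adjusted p 0.0332), and Mgp, an inhibitor of calcification, by 1.24. Without control rat 2, control rat 3 or pioglitazone rats 1, 2 or 4, 0 genes of either list were called.

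Proteins that process matrix were represented by single genes. Adamts14, which encodes a procollagen N-proteinase, was 1.99, 1.81, 2.63 and 1.95 CPM in control, 8.24, 12.2, 8.28 and 14.6 CPM with pioglitazone and 51.7, 27.4, 27.4 and 23.9 CPM in PAN. Treated rats lay between controls and PAN rats without overlap on either side, with a log2 difference of 2.34 (SE 0.34, limma adjusted p 0.00462), and the interval of pioglitazone minus PAN was -2.29 to -0.84. Adamts12, another metalloproteinase gene, was 4.82, 4.14, 1.61 and 2.23 CPM in control and 13.2, 13.04, 12.6 and 11.4 CPM with pioglitazone. These values did not overlap, with a log2 difference of 2.11 (SE 0.34, limma adjusted p 0.00917). The disintegrin metalloproteinase gene Adam12 differed by 2.17 (SE 0.47, limma adjusted p 0.0269). Of 17 genes on the list of matrix proteases and inhibitors 2 were higher and 0 lower, beside 2.56% and 0.741% of all genes. Timp2, an inhibitor of metalloproteinases, was higher by 1.32 (SE 0.26, limma adjusted p 0.0206) and Adamts9 by 1.29 (SE 0.27, limma adjusted p 0.0229).

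Of 18 basement membrane genes 1 was higher and 0 lower, beside 2.56% and 0.741% of all genes. The list median was 0.40 in both comparisons. Nid1, which encodes nidogen 1, the linker between laminin and type IV collagen, was 174, 140.0, 98.00 and 119 CPM in control and 322, 327, 248 and 260.2 CPM with pioglitazone. All treated rats were above all controls, with a log2 difference of 1.15 (SE 0.25, limma adjusted p 0.0285). Of 22 TGF-β and BMP pathway genes 1 was higher and 0 lower, beside 2.56% and 0.741% of all genes. This was the ligand gene Tgfb3, at 11.6, 5.72, 4.51 and 6.41 CPM in control and 27.8, 22.8, 15.9 and 21.9 CPM with pioglitazone. It did not overlap between groups, with a log2 difference of 1.71 (SE 0.29, limma adjusted p 0.0113), while the list median was 0.07. Hjv, the gene for hemojuvelin, a BMP co-receptor known from iron regulation, was 71.7, 12.8, 12.7 and 34.2 CPM in control and 78.8, 235, 200.0 and 388 CPM with pioglitazone. Control rat 1, at the high end of the controls, was close to pioglitazone rat 1, and the log2 difference was 2.96 (SE 0.56, limma adjusted p 0.0187).

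The cytoskeletal genes that changed were higher. Of 24 actin and foot process genes, 8 were higher and 0 lower (2.56% and 0.741% of all genes). The list median was 0.41 here and 0.45 for PAN against control. Flna (ENSRNOG00000054890), which encodes the actin crosslinker filamin A, was 545, 547, 442 and 491 CPM in control and 1166, 966, 799 and 927 CPM with pioglitazone. The lowest treated rat exceeded the highest control, with a log2 difference of 0.92 (SE 0.18, limma adjusted p 0.0192). Vcl, the gene for vinculin, which couples integrins to actin, was 147, 126, 112 and 127 CPM in control and 283, 252, 198 and 202 CPM with pioglitazone. There was again no overlap, with a log2 difference of 0.86 (SE 0.15, limma adjusted p 0.0118). Tropomyosin 2, encoded by Tpm2, was 24.8, 12.4, 13.8 and 27.4 CPM in control and 57.4, 55.1, 35.7 and 47.01 CPM with pioglitazone, with a log2 difference of 1.38 (SE 0.27, limma adjusted p 0.0201). The others were Myl9, Pdlim1, Cald1, Actb and Tpm4, genes of myosin light chain, a Z-line adaptor, caldesmon, β-actin and a tropomyosin, with log2 differences from 0.51 to 1.10. Smooth muscle cells also express most of these proteins, and the 8 calls fell to 0 without control rat 3 or pioglitazone rat 2 and to 1 without control rat 2 or pioglitazone rat 4.

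Des (ENSRNOG00000019810), which encodes the intermediate filament desmin, was 143, 66.3, 46.6 and 109.9 CPM in control, 204, 288, 245 and 473 CPM with pioglitazone and 825, 687, 508 and 599 CPM in PAN. Every treated rat was above every control and below every PAN rat, with a log2 difference of 1.79 (SE 0.34, limma adjusted p 0.0191) against control and an interval of -1.896 to -0.43 against PAN. Desmin was the only changed gene among 9 intermediate filament genes, beside 2.56% of all genes that were higher. Of 19 integrin and focal adhesion genes, 2 were higher and 0 lower, beside 2.56% and 0.741% of all genes. Parva, encoding α-parvin of the integrin-linked kinase complex, was 186, 180.0, 159.7 and 165 CPM in control and 222, 228, 206 and 219.6 CPM with pioglitazone, with a log2 difference of 0.34 (SE 0.08, limma adjusted p 0.0403). Tgfb1i1, encoding the focal adhesion adaptor Hic-5, differed by 0.599 (SE 0.12, limma adjusted p 0.0209).

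Of 24 podocyte genes 1 was higher and 0 lower, beside 2.56% and 0.741% of all genes, a share near the background. Of the 24, 22 differences were positive and the median was 0.71 here and 1.08 for PAN against control. Nphs1 (ENSRNOG00000020873), which encodes nephrin of the slit diaphragm, was 1954, 489, 519.7 and 953 CPM in control and 805, 1365, 1971 and 2322 CPM with pioglitazone. Control rat 1 was at the level of the high treated rats and pioglitazone rat 1 was among the controls, control rat 4 being above it, so that the groups overlapped, with a log2 difference of 0.85 (SE 0.44, limma adjusted p 0.282). Synpo, encoding the actin-associated protein synaptopodin, was 719, 132, 116 and 202 CPM in control and 209, 393, 589 and 762 CPM with pioglitazone. Control rat 1 exceeded 3 of the 4 treated rats, with a log2 difference of 1.01 (SE 0.55, limma adjusted p 0.306). Wt1, the podocyte transcription factor gene, was 219, 54.5, 52.3 and 83.7 CPM in control and 82.5, 174, 237 and 259 CPM with pioglitazone, with a log2 difference of 1.02 (SE 0.43, limma adjusted p 0.194). Podxl, the gene for the podocyte surface sialomucin, differed by 0.29 (SE 0.23, limma adjusted p 0.5). With 1 rat left out the log2 differences ran from 0.60 to 1.26 for Nphs1 and from 0.71 to 1.59 for Synpo. They ran from 0.79 to 1.47 for Wt1 and from 0.19 to 0.45 for Podxl.

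The podocyte gene that passed the test was Trpc6, a calcium channel gene, at 2.98, 2.43, 2.39 and 2.402 CPM in control and 5.99, 7.25, 4.58 and 5.504 CPM with pioglitazone. No rats overlapped, with a log2 difference of 1.18 (SE 0.25, limma adjusted p 0.0249). Across the whole podocyte list the mean level was 6.39 to 7.95 on the log2 scale in control rats and 6.90 to 8.09 with pioglitazone. No gene passed among 18 glomerular endothelial genes, whose median was -0.07, among 10 parietal epithelial genes, whose median was -0.12, or among 5 fibroblast genes, whose median was -0.09. Kdr, the endothelial VEGF receptor gene, was 1508, 2840.4, 2711 and 2400.0 CPM in control and 3008, 1956, 1444 and 2040.1 CPM with pioglitazone.

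**Figure D4:**
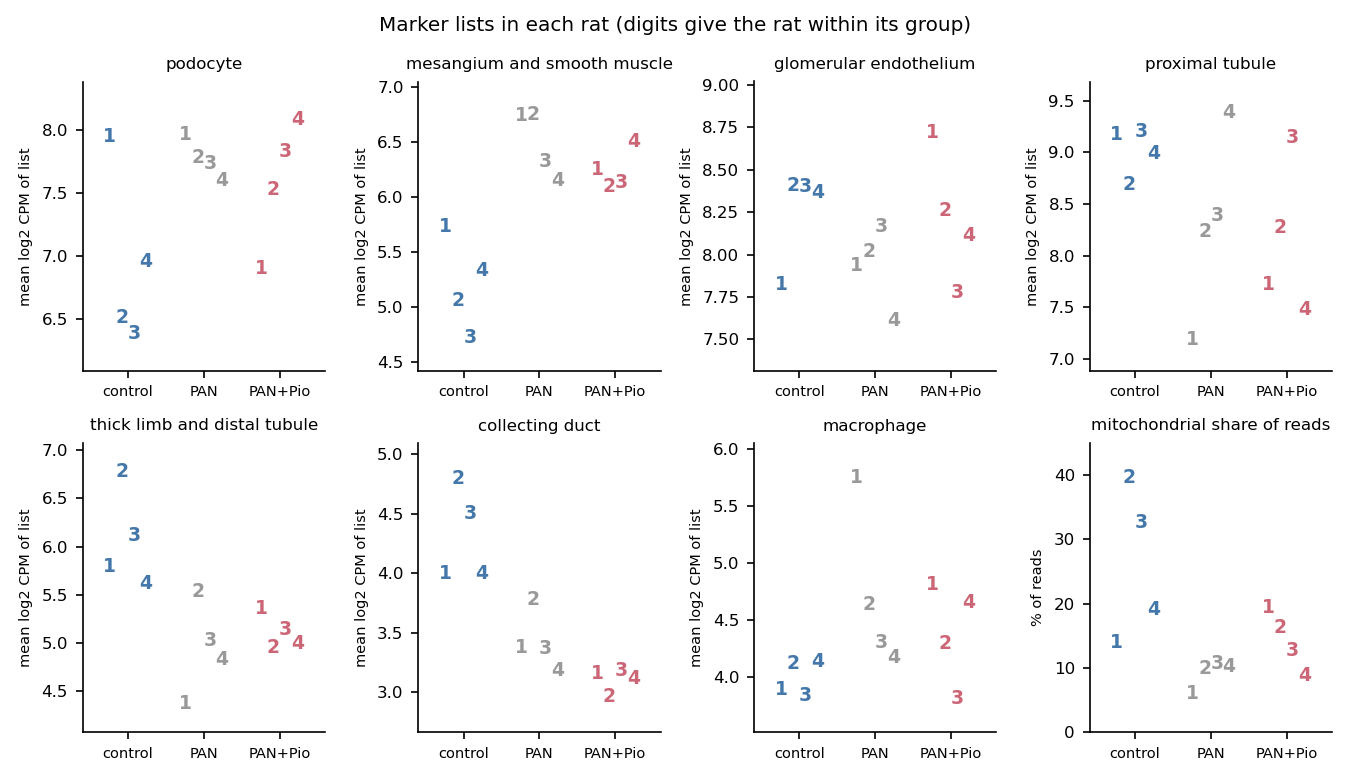
Mean log2 CPM of 7 marker lists and the mitochondrial share of reads (vertical axes) in each rat of the control, PAN and PAN + pioglitazone groups; digits give the rat number within its group. Collecting duct levels are 3.99 to 4.79 in controls and 2.96 to 3.18 with pioglitazone, and mesangial levels separate the same groups in the other direction.

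Cell cycle genes mostly had positive differences. Of 22 measured genes 3 were higher and 0 lower (2.56% and 0.741% of all genes), 21 differences were positive, 17 had no overlap in that direction (6.9% of all genes), and the median was 0.79. For PAN against control 13 were higher and the median was 0.98. Top2a (ENSRNOG00000053047), the topoisomerase of dividing cells, was 7.02, 9.14, 10.6 and 7.88 CPM in control and 31.9, 46.8, 39.2 and 19.2 CPM with pioglitazone. The lowest treated rat, rat 4, was above every control, with a log2 difference of 1.93 (SE 0.49, limma adjusted p 0.0475). Cdk1, the kinase that drives entry into mitosis, was 3.53, 2.64, 2.31 and 3.53 CPM in control and 10.1, 14.3, 12.8 and 8.33 CPM with pioglitazone. The groups stood apart, with a log2 difference of 1.92 (SE 0.44, limma adjusted p 0.033). Ccna2, encoding cyclin A2, differed by 1.58 (SE 0.39, limma adjusted p 0.0454). The mitotic regulator gene Pimreg, among the largest rises, was 1.81, 1.61, 2.39 and 1.78 CPM in control and 9.604, 14.1, 16.04 and 7.31 CPM with pioglitazone, with a log2 difference of 2.58 (SE 0.55, limma adjusted p 0.0264).

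The 3 calls of the list were near the threshold, and their number moved between 0 and 13 with the settings. It was 13 without centring, 11 in the libraries numbered 15 or lower, 10 in a fit to the 8 libraries, 0 with voom weights, and between 0 and 2 with 1 rat left out. The differences of the 3 genes were positive in each. The promoters of Top2a and Cdk1, and of the anaphase activator gene Cdc20, named after its values were seen, are shown because they hold the pair of elements known from mitotic genes, the CHR element (TTTGAA or TTCGAA) and the CCAAT box. Each is the 150 bases before the start in RefSeq assembly GRCr8, 5′ to 3′ along the gene, with either motif in capitals on either strand. They lie at chr10:84473094-84473243, minus strand, chr20:19265143-19265292, plus strand, and chr5:137255800-137255949, minus strand.
Top2a: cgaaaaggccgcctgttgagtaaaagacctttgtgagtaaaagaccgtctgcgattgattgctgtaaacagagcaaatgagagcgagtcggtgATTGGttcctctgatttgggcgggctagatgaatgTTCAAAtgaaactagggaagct
Cdk1: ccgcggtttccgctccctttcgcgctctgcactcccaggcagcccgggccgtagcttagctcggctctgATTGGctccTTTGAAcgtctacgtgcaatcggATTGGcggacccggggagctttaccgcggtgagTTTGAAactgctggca
Cdc20: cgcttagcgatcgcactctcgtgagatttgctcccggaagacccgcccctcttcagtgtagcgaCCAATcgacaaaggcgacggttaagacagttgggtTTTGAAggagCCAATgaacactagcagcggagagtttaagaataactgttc
In the 250 bases before the start, both motifs were present in 5 of 17 cell cycle list genes with a promoter sequence, or 29.4%. The share was 6.22% over all promoters and 4.49% over promoters of genes in the table. A CCAAT box, with or without a CHR element, was present in 70.6% of the 17, beside 34.3% of all promoters. The 2 motifs do not share bases in the windows shown. The Cdc20 gene differed by 1.33 on the log2 scale and lost its call in 8 of 8 fits with 1 rat left out.

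Cdkn1a (ENSRNOG00000000521), the p53 target that encodes the cell cycle inhibitor p21, was 10.2, 12.1, 15.8 and 15.7 CPM in control, 46.6, 37.2, 34.8 and 33.4 CPM with pioglitazone and 42.02, 63.1, 35.7 and 37.3 CPM in PAN. Every treated rat was more than 2 times the highest control, with a log2 difference of 1.51 (SE 0.19, limma adjusted p 0.0025), and the interval of pioglitazone minus PAN was -0.61 to 0.21. Of 20 p53 targets 3 were higher and 0 lower (2.56% and 0.741% of all genes), with a median of 0.09. Phlda3, a p53 target that restrains Akt, was 18.9, 13.3, 11.9 and 17.4 CPM in control and 36.9, 34.97, 30.95 and 44.7 CPM with pioglitazone, with a log2 difference of 1.28 (SE 0.23, limma adjusted p 0.0147). Tp53inp1, a p53 partner, differed by 0.47 (SE 0.11, limma adjusted p 0.0339). Without control rat 2, control rat 3 or pioglitazone rat 2, the list held 1 call. Cdkn1a kept its call with each rat left out, with limma adjusted p-values up to 0.0139.

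Tubule genes made up much of the named falls. All 40 measured genes of the proximal tubule, thick limb, distal tubule and collecting duct lists had negative differences, and 6 of the 40 passed the test. Sieved glomeruli can carry tubule fragments, and the labels give no measure of purity. Of 12 collecting duct genes 5 were lower and 0 higher (0.741% and 2.56% of all genes). The list median was -1.25 here and -0.88 for PAN against control. Aqp2 (ENSRNOG00000054378), the vasopressin-regulated water channel, was 40.95, 41.5, 38.00 and 29.1 CPM in control, 9.799, 11.1, 12.4 and 19.1 CPM with pioglitazone and 30.1, 37.8, 18.7 and 19.4 CPM in PAN. All treated rats were below all controls, with a log2 difference of -1.55 (SE 0.29, limma adjusted p 0.017), and the interval of pioglitazone minus PAN was -1.62 to -0.39.

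Hsd11b2 (ENSRNOG00000017084), whose enzyme protects the mineralocorticoid receptor from glucocorticoids, was 66.5, 97.4, 75.02 and 60.7 CPM in control and 28.2, 18.1, 25.4 and 35.1 CPM with pioglitazone. The highest treated rat was under the lowest control, with a log2 difference of -1.505 (SE 0.29, limma adjusted p 0.0187). Scnn1g, a subunit of the epithelial sodium channel, was 6.53, 9.55, 8.12 and 4.55 CPM in control and 1.93, 1.67, 2.58 and 2.44 CPM with pioglitazone, with a log2 difference of -1.71 (SE 0.34, limma adjusted p 0.0201). Its partner subunit gene Scnn1b fell by 1.27 on the log2 scale. Slc4a9, an anion exchanger gene among the largest falls and on no list, was 24.02, 44.3, 30.6 and 24.1 CPM in control and 13.1, 8.83, 9.48 and 12.2 CPM with pioglitazone, with a log2 difference of -1.47 (SE 0.27, limma adjusted p 0.0161). Slc26a4, encoding the anion exchanger pendrin and also on no list, was 18.5, 30.9, 26.8 and 23.7 CPM in control and 10.7, 9.27, 8.63 and 12.5 CPM with pioglitazone, with a log2 difference of -1.27 (SE 0.24, limma adjusted p 0.0186). The proton pump subunit gene Atp6v1g3 of the collecting duct list differed by -1.304 (SE 0.33, limma adjusted p 0.0477). Without control rat 2, control rat 3 or pioglitazone rat 2, 0 of the collecting duct genes were called.

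In the thick limb and distal tubule list 1 of 11 genes was lower, beside 0.741% of all genes, and the median was -0.91. Umod, which encodes uromodulin of the thick limb, was 522, 1083, 681 and 451 CPM in control and 309.9, 268, 314 and 316 CPM with pioglitazone. The groups did not overlap, but the difference missed the threshold, with a log2 difference of -1.099 (SE 0.33, limma adjusted p 0.0808). Tfap2b, a transcription factor gene of the distal nephron, differed by -1.35 (SE 0.33, limma adjusted p 0.0408). None of 17 proximal tubule genes passed, with a median of -0.86, and the phosphate transporter gene Slc34a1 was 2867, 1979.8, 2813 and 2366 CPM in control and 892, 1481, 2626 and 924 CPM with pioglitazone, rat 3 being at control level.

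Prrt2 (ENSRNOG00000029366), known as a presynaptic protein gene, had the largest fall of the genes named by rule, from 51.4, 41.2, 44.6 and 35.6 CPM in control to 3.64, 10.4, 16.8 and 15.9 CPM with pioglitazone. Every treated rat was below every control, with a log2 difference of -2.097 (SE 0.37, limma adjusted p 0.0151), and PAN rats had 6.57, 7.06, 8.91 and 4.86 CPM. Apoe, the gene for the lipid carrier apolipoprotein E, was 622, 709.8, 967 and 685 CPM in control and 229.7, 277, 432 and 226 CPM with pioglitazone. No overlap was seen, with a log2 difference of -1.39 (SE 0.29, limma adjusted p 0.0229), and PAN rats had 381, 278, 348 and 699 CPM. The extracellular protein gene Olfml1 was 52.1, 9.49, 57.7 and 29.5 CPM in control and 8.92, 9.43, 7.33 and 9.35 CPM with pioglitazone. Control rat 2 was level with the treated rats, with a log2 difference of -1.796 (SE 0.46, limma adjusted p 0.0493). The collagen chain genes Col9a1 and Col6a6, in contrast to Col1a1, were lower, with differences of -1.37 (SE 0.35, limma adjusted p 0.0487) and -1.37 (SE 0.31, limma adjusted p 0.0337). The channel gene Panx2 differed by -1.28 (SE 0.28, limma adjusted p 0.0269).

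Of 17 macrophage genes 1 was higher and 0 lower, beside 2.56% and 0.741% of all genes, with a median of 0.41 here and 0.77 for PAN against control. Mrc1, the mannose receptor gene of resident macrophages, was 9.48, 11.1, 7.098 and 10.5 CPM in control and 37.2, 20.5, 19.9 and 21.3 CPM with pioglitazone, with a log2 difference of 1.34 (SE 0.35, limma adjusted p 0.049). It lost its call in 7 of 8 fits with 1 rat left out, held without pioglitazone rat 3, and the limma adjusted p reached 0.167. Of 6 measured lymphocyte genes 2 were lower and 0 higher, above the share of 0.741% of all genes that were lower. The B cell receptor component gene Cd79a was 7.21, 8.18, 6.39 and 4.78 CPM in control and 2.37, 3.31, 2.08 and 2.38 CPM with pioglitazone, with a log2 difference of -1.39 (SE 0.34, limma adjusted p 0.0431). It was under 10 CPM in every rat and lost its call in 8 of 8 fits with 1 rat left out. No gene passed among 19 complement genes, 27 MHC and interferon genes, 18 chemokine and NF-κB genes or 6 red blood cell genes, whose medians were 0.10, 0.05, 0.14 and 0.88.

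Metabolic lists held 1 call. Of 24 PPAR targets and fatty acid oxidation genes 1 was higher and 0 lower, beside 2.56% and 0.741% of all genes. On this list 19 differences were negative and the median was -0.29. Cpt1b, the muscle form of the carnitine palmitoyltransferase that admits fatty acids to mitochondria, was 5.67, 5.44, 3.88 and 4.61 CPM in control, 8.87, 11.5, 8.53 and 17.5 CPM with pioglitazone and 28.5, 22.8, 21.1 and 18.6 CPM in PAN. Treated rats lay between both other groups, with a log2 difference of 1.196 (SE 0.26, limma adjusted p 0.0263) against control and an interval of -1.56 to -0.47 against PAN. Pdk4, a PPAR target that slows glucose oxidation, was 4.75, 2.500, 1.69 and 3.76 CPM in control and 5.401, 3.75, 4.88 and 4.48 CPM with pioglitazone, and its difference did not pass, 0.64 (SE 0.45, limma adjusted p 0.442). All 13 mitochondrially encoded messages of the list and all 28 nuclear respiratory chain genes had negative differences, with medians of -0.99 and -0.34, and 0 of either list passed.

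No gene passed among 20 cholesterol and fatty acid synthesis genes, 19 glycolysis and glycogen genes, 19 ribosomal protein genes, 20 endoplasmic reticulum stress genes, 17 Nrf2 targets, 20 immediate early genes or 23 proteasome and lysosome genes. Their medians lay between -0.15, for glycolysis, and 0.21, for endoplasmic reticulum stress, where 19 of 20 differences were positive. The ribosomal protein gene Rplp0 was 387, 436, 398 and 393 CPM in control and 409.7, 426, 372 and 383 CPM with pioglitazone. The tubule injury marker gene Lcn2 was 5.67, 1.54, 1.14 and 2.57 CPM in control and 2.47, 8.01, 5.63 and 3.46 CPM with pioglitazone, with a log2 difference of 0.98 (SE 0.64, limma adjusted p 0.394). Among growth factor and guidance genes, Angpt2, the angiopoietin that opposes Tie2 signalling, was higher by 1.11 (SE 0.26, limma adjusted p 0.0375) and the guidance receptor gene Robo1 by 1.17 (SE 0.301, limma adjusted p 0.0491). These were 1 of 17 and 1 of 23 genes, beside 2.56% of all genes that were higher. Nptx2, encoding a secreted neuronal pentraxin, was 1.196, 0.788, 0.902 and 1.38 CPM in control and 5.596, 22.9, 14.5 and 22.05 CPM with pioglitazone. Each treated rat was above each control, with a log2 difference of 3.77 (SE 0.52, limma adjusted p 0.00344), and PAN rats had 7.08, 4.88, 21.7 and 10.3 CPM.

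**Figure D5:**
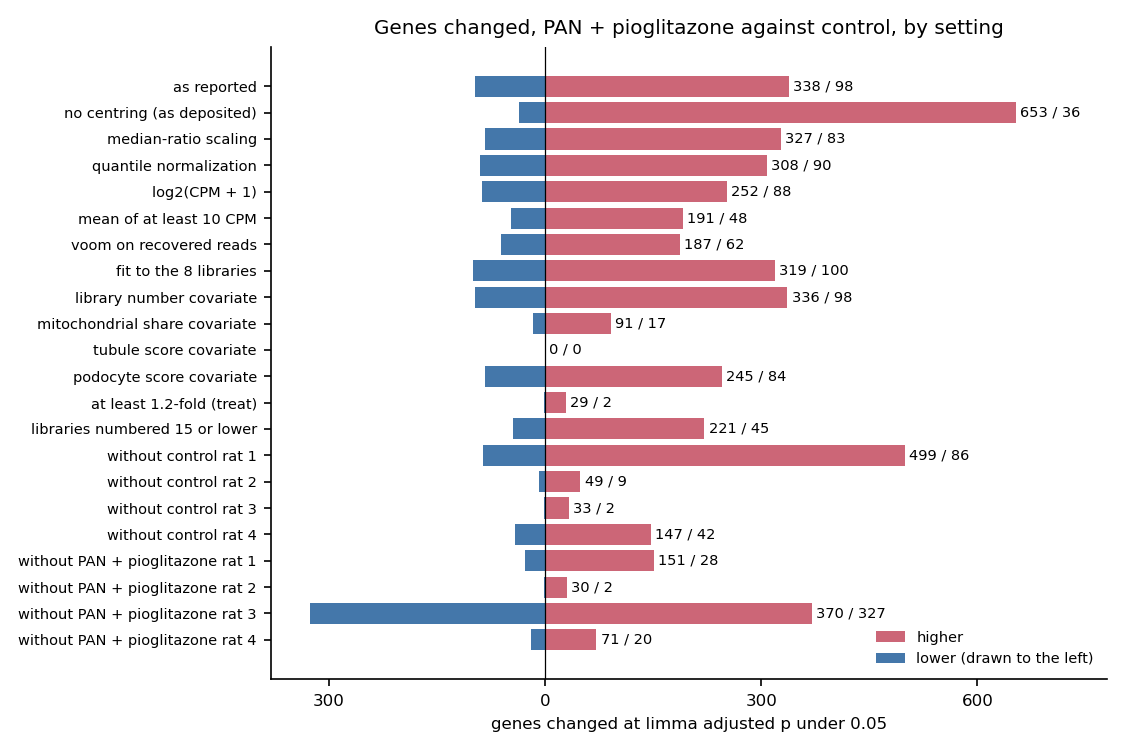
Number of genes changed between PAN + pioglitazone and control at a limma adjusted p under 0.05 (horizontal axis; higher genes to the right, lower genes to the left) under each setting (vertical axis), with both counts printed as higher / lower. The counts are 338 and 98 as reported, 0 and 0 with the tubule level as covariate and 91 and 17 with the mitochondrial share as covariate.

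The tubule and mitochondrial measures moved with the comparison. With the mean tubule level as a covariate limma called 0 genes at a smallest adjusted p of 0.130, beside 1259 with an unadjusted p below 0.05. Since this mean log2 level did not overlap between the groups, it and the treatment group cannot be told apart. Other measures of tubule content did overlap. The summed CPM of the same 40 genes was 15009 to 18364 in control and 5846 to 15707 with pioglitazone. The mean log2 level of the proximal tubule list was 8.68 to 9.20 in control and 7.48 to 9.14 with pioglitazone. Of 88 changed genes that are named, 47 had a log2 difference more than 1.5 times smaller with this covariate, 4 more than 1.5 times larger and 37 within that range. Col1a1 went from 3.13 to 0.97, Acta2 from 1.89 to 0.82 and Tpm2 from 1.38 to 0.48. Top2a went from 1.93 to 2.98, whereas Cdkn1a was 1.51 and 1.52, Ptgs1 1.22 and 1.21 and Vegfd 1.81 and 1.90. With the mitochondrial share as a covariate 108 genes were changed, and with the podocyte level 329. Of these, 91 and 204 were among the 436 reported. Of the 88 genes, named here or in the closing observations, 12 kept their call with each rat left out. They were Synpo2l, Pygm, Ldb3, Nptx2, Adamts14, Adamts12, Cdkn1a, Ptgs1, Anln, Armcx6, Vegfd and Ccdc80. Anln, Armcx6, Vegfd and Ccdc80 were chosen after their values were seen, so 12 of 88 is not a rate for genes named by rule. All 88 kept their direction under every alternative.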

How the data were processed

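Glomerular poly(A) RNA was sequenced from 16 rats, 4 in each of 4 groups. The deposited table holds log2 CPM values for 13222 genes. The submitters' processing notes name HISAT2, featureCounts of Subread, limma and the rat build Rnor_6.0, without versions. The values deposited by the authors have 0.5 read added to each count and 1 to each total, and undoing this gave whole reads for 100% of values (tolerance 0.1 read). Genes of low abundance are not listed, so totals refer to listed genes. Each column was centred on its median, and the mean of the medians was added back. limma 3.58.1 in R 4.3.3, with a variance trend, was fitted to all 16 libraries with 4 group means. Tests were two-sided with Benjamini-Hochberg adjustment over all 13222 genes, and changed means an adjusted p under 0.05. The procedure was tested on simulated data. Fits that leave out a rat keep the other groups.

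Named genes were the 12 largest rises and 12 largest falls among changed genes with a symbol, at least 5 CPM on average and no overlap. To these were added, from each list, the 3 changed members with the smallest p, or the 2 with the highest level where none changed, and a fixed set of kidney genes. Some genes that the rule names are not reported here. Of the genes with the highest level in lists without a change, only examples are printed. Genes outside the rule are marked, apart from changed list members given with their list. The comparison and lists were chosen with earlier results of these data known. Symbols were matched for 11689 genes in RefSeq, and the files pair no promoter with a transcript, so the first RefSeq start of a symbol was used. Libraries of a group differed by more than counting error (chi-square per gene 25.1 to 277). Alternatives changed the scaling, pseudocount, low-value filter, test, samples, covariates or minimum change, as the closing section states. The library number is the number in the sample titles.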

Additional observations from a re-analysis of the deposited data

Results flagged for a closer look

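In 4 of 194 groups of 4 rats examined over the named genes, the highest or lowest rat stood apart by more than Dixon's 95% limit. At 1 in 20, about 9.7 such groups would be expected if the groups were unselected and independent. Most of these genes were named because they were changed, and all share the same rats. The count therefore cannot be tested against that number. Trpc6 in control rat 1 was 2.98 CPM, and the other controls had 2.39 to 2.43 CPM. Mrc1 in pioglitazone rat 1 was 37.2 CPM, beside 19.9 to 21.3 CPM. Umod in pioglitazone rat 2 was 268 CPM, the lowest of its group, beside 309.9 to 316 CPM. Vegfd in control rat 3 was 9.45 CPM, the lowest control, beside 17.0 to 19.1 CPM.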

How the results depend on the processing

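Counts are given as genes changed, higher and lower between the pioglitazone group and control, 436, 338 and 98 as reported. They were 689, 653 and 36 without centring, where the median of all genes moved to 0.23, 239, 191 and 48 with a minimum of 10 CPM, which tested 9909 genes, and 249, 187 and 62 with voom weights on recovered reads. With the mitochondrial share as covariate they were 108, 91 and 17, with the tubule level 0 each, against a minimum change of 1.2-fold 31, 29 and 2, and in libraries numbered 15 or lower, which leave out pioglitazone rat 4, PAN rats 1 to 3 and 1 rat of the group labelled PAN_GQ-16, 266, 221 and 45. With 1 rat left out they ranged from 32 to 697, 30 to 499 and 2 to 327. Median-ratio scaling, quantile normalization, log2(CPM + 1), a fit to the 8 libraries, the library number covariate and the podocyte covariate gave counts of changed genes from 329 to 434. Similar counts did not mean the same genes. Of the 436 reported genes, 271 were among the 419 changed in the fit to the 8 libraries. With the library number covariate 352 of 434 were shared, and with the podocyte covariate 204 of 329.

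Of the 88 changed named genes, 88 lost the call with the tubule covariate, 59 with the mitochondrial covariate, 26 with voom and 4 without centring, and 0 kept it in all alternatives. Some genes that had not passed changed sign. With the mitochondrial covariate the log2 difference was -0.012 for Nphs1, -0.074 for Podxl and -0.059 for Synpo. With the podocyte covariate it was -0.0440 for Podxl and -0.029 for Synpo, and with the tubule covariate -0.22 for Podxl, -0.42 for Lcn2 and -0.67 for Pdk4. The cause was not tested. No paired analysis was possible because the labels give no replicate numbers shared between groups. Each of the 8 libraries held 15156273 reads or more, and intervals from counts would cover counting error only.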

Other observations

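The genes in these paragraphs were chosen after their values were seen. Anln, which encodes the cytokinesis protein anillin, was 8.13, 9.42, 6.71 and 5.51 CPM in control and 25.3, 30.9, 28.6 and 19.6 CPM with pioglitazone. All treated rats were above all controls, with a log2 difference of 1.82 (SE 0.24, limma adjusted p 0.00253), and the call held with each rat left out. Prc1, a gene of the central spindle, was 5.49, 7.43, 8.75 and 7.55 CPM in control and 23.8, 36.6, 32.95 and 17.5 CPM with pioglitazone, with a log2 difference of 1.88 (SE 0.46, limma adjusted p 0.0408). It lost its call in 8 of 8 fits with 1 rat left out. Of 14 measured genes with a symbol beginning Cenp, 3 were higher and 0 lower, 11 differences were positive and the median log2 difference was 0.29. Of 28 kinesin genes with a symbol beginning Kif, 2 were higher and 1 lower, 16 differences were positive and the median was 0.048. Over all genes 2.56% were higher and 0.741% lower.

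Genes of the Armcx family of armadillo repeat proteins, which are encoded on the X chromosome and share sequence, were higher in 5 of 6 measured cases. Armcx6 was 3.65, 2.91, 2.39 and 4.32 CPM in control and 7.26, 8.01, 7.38 and 7.85 CPM with pioglitazone. The groups did not overlap, with a log2 difference of 1.23 (SE 0.17, limma adjusted p 0.00354). The differences of Armcx1, Armcx2, Armcx3 and Armcx4 were 0.39, 0.89, 0.53 and 0.97, and no rats overlapped. With 1 rat left out, Armcx6 kept its call in every fit, and the other 4 lost it in 4 to 6 of 8 fits. Counts of family members that share sequence are uncertain.

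Vegfd, a ligand of the lymphatic VEGF receptor, was 19.1, 17.4, 9.45 and 16.98 CPM in control, 50.95, 61.2, 55.8 and 46.8 CPM with pioglitazone and 53.5, 80.99, 54.9 and 88.2 CPM in PAN. Every treated rat was more than 2 times the highest control, with a log2 difference of 1.81 (SE 0.24, limma adjusted p 0.00253). Ccdc80, a matrix-associated protein gene, was 263, 120.2, 109 and 163 CPM in control and 407, 563, 401 and 639.9 CPM with pioglitazone, with a log2 difference of 1.68 (SE 0.25, limma adjusted p 0.00593). Both kept their call with each rat left out.

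Aebp1, which encodes a carboxypeptidase-like matrix protein of fibroblasts, was 88.6, 71.6, 104 and 102 CPM in control, 34.5, 40.3, 51.3 and 34.7 CPM with pioglitazone and 141, 74.5, 56.5 and 111 CPM in PAN. Treated rats were below all rats of both other groups, with a log2 difference of -1.19 (SE 0.23, limma adjusted p 0.0191) against control. Pioglitazone minus PAN was -1.19 on the log2 scale (unadjusted limma p 0.000134, adjusted p 0.759). Cdh1, encoding E-cadherin, differed by -1.02 (SE 0.205, limma adjusted p 0.0205), the ammonia channel gene Rhcg by -1.22 (SE 0.21, limma adjusted p 0.0126) and the intercalated cell water channel gene Aqp6 by -1.27 (SE 0.33, limma adjusted p 0.0491). With 1 rat left out, Cdh1 lost its call in 5 of 8 fits, Rhcg in 2 and Aqp6 in 7.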
